A study of Mus musculus with 8 samples.

Results

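The 38 genes described here encode enzymes that take amino acids apart in the liver and the enzymes of the urea cycle, and they are 38 of the 55401 gene identifiers in the deposited count table. They are listed by name, from what the enzymes do, and grouped by the amino acid they act on. The rule itself uses no measured value, but the members were chosen with earlier results of these data known. All 38 had a count above 0 in every library and all were tested, so no member was lost to the filter on low counts. The samples were livers of NOD Scid Gamma (NSG) mice, an immunodeficient strain that lacks mature lymphocytes and accepts human tumours, each bearing a xenograft of a human colorectal cancer cell line under the skin. Hosts of Colo201, described in the series as a line with high FGF19, gave 4 libraries, and hosts of HCT116, described as a line with low FGF19, gave the other 4. Within each line 2 libraries were labelled male and 2 female; Colo201 2L and 2R and HCT116 1L and 1R were the libraries labelled male, and Colo201 4L and 4R and HCT116 3L and 3R those labelled female. The labels used here give no ages. Every host bore a tumour and each line has 1 level of FGF19, so FGF19 and the other differences between the tumours cannot be told apart.

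The liver is the main site at which surplus amino acids are broken down. Aminotransferases and dehydratases first remove or move the amino group, the carbon skeletons enter gluconeogenesis or the citric acid cycle, and the freed ammonia is turned into urea by the cycle that starts with carbamoyl phosphate synthetase in the mitochondria. Much of this work is divided along the liver lobule: urea synthesis, glutaminase and histidase are concentrated near the portal vein, while glutamine synthetase sits around the central vein and captures ammonia that escaped. FGF19 is an intestinal hormone that reaches hepatocytes by way of the receptor FGFR4 and its partner Klb and is best known for repressing bile acid synthesis.

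Depth was nearly even, at 61347603 to 65457482 estimated counts per library. The X- and Y-linked genes went against the sex label in all 8 libraries, with Xist at 239 to 374 CPM (counts per 1000000 counts of the library) where the label was male and 0.275 to 0.833 CPM where it was female, so sex is written only as labelled. Whether the L and R libraries of a title number were separate animals is not said, and each number belongs to 1 line and 1 label, so p-values speak only to how these libraries vary, and that variation may be technical. One library stood apart for these genes: HCT116 3R was the lowest of the 8 for 21 of the 38 members and the highest for 0. Counts of members are therefore also given without it.

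In hosts of Colo201 relative to hosts of HCT116, 8 of the 38 members were higher, 3 were lower and 27 did not pass (edgeR quasi-likelihood test with sex label as a covariate, adjusted p under 0.05). Over all 17669 genes tested the share that passed was 4.78%, with 2.48% higher and 2.3% lower, against 28.95% of the members. Every member had at least 1706 counts in every library, and many genes tested had far fewer. In a fit limited to the 12737 genes with a mean of at least 1 CPM, 8.26% of genes passed. The members that rose were Gls2, Cbs, Gldc, Hal, Amt, Amdhd1, Oat and Hgd, and those that fell were Gpt2, Ahcy and Aass. The changes were modest: 0 of the 38 members reached a 2-fold difference, and the median absolute log2 fold change of the members was 0.14, against 0.27 over the other genes tested. Those other genes include some with a mean under 1 CPM, so the 2 medians do not compare genes of like level. The median log2 fold change was 0.04 over the members and 0.00 over all genes. The 4 libraries of a line lay wholly above those of the other for 7 members higher and 3 lower in hosts of Colo201, where the shares over all genes were 5.55% and 6.4%. Together the 38 genes took 24210 ± 1538 CPM in hosts of Colo201 and 24770 ± 3578 CPM in hosts of HCT116 (SD, n = 4), which is 2.42% and 2.48% of all counts. In bulk tissue, fewer cells of a type and less RNA per cell cannot be told apart.

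These counts depended on single libraries. Without HCT116 3R, 5 members were higher and 4 lower, against 2.44% of all genes: Hgd, Oat and Amt no longer passed, and Prodh did. Leaving out any other library gave 4 to 8 members, against 1.03% to 3.11% of all genes. Without HCT116 1L or 3L, 4 were higher and 0 lower (1.26% and 1.03% of all genes passed), and without Colo201 2L, 2R or 4L the falls of Gpt2, Ahcy and Aass were lost too. With no sex label in the fit 3 members were higher and 0 lower, against 0.877% of all genes. With the libraries of each title number summed, which leaves 1 residual degree of freedom, 0 members and 0 of 19704 genes passed by edgeR, and 16 members had an unadjusted p under 0.05, against 17.9% of all genes. The 2 libraries of a title number were closer to each other than to any other library (chi-square per gene of 52.8 to 107, against 133 to 417), and no other pair has line and sex label in common.

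**Figure D1:**
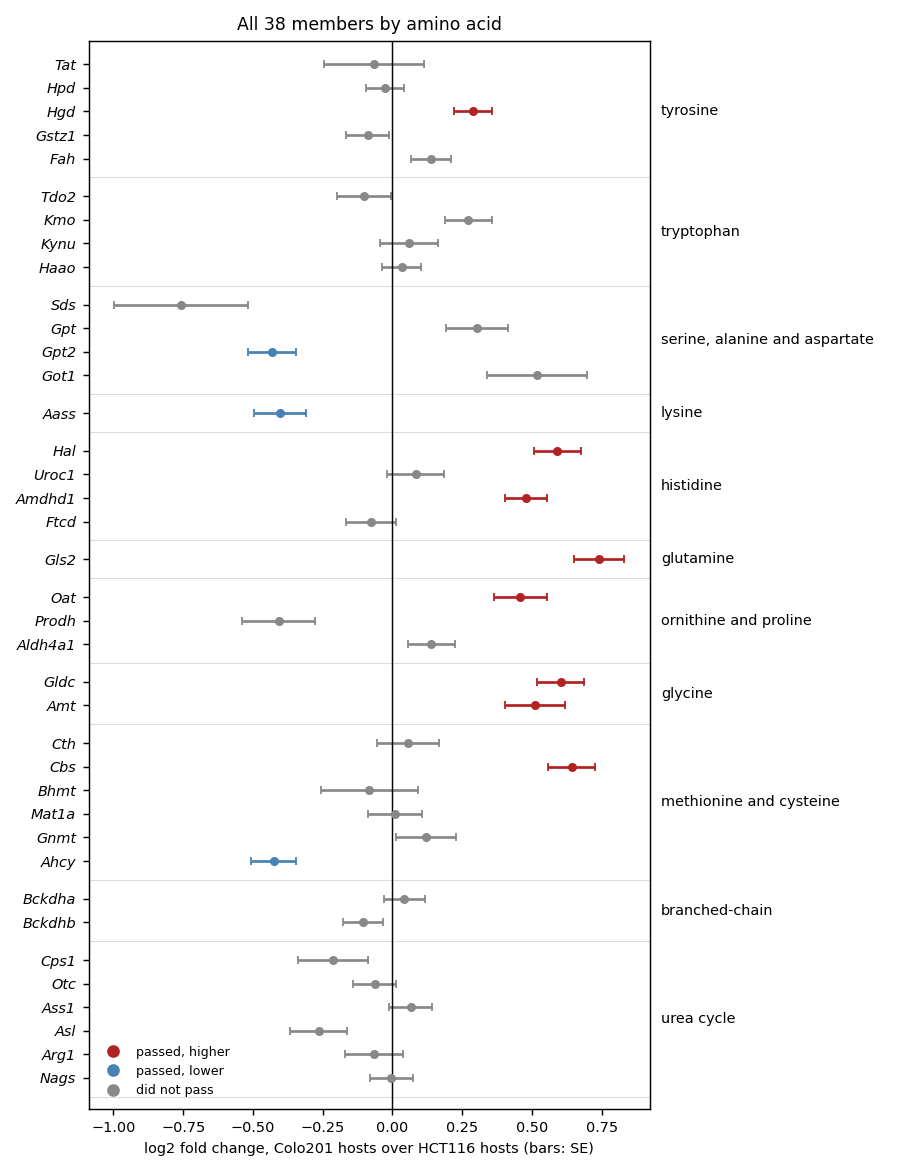
Each point is the log2 fold change of 1 member between the lines (horizontal axis, log2 units, positive means higher in hosts of Colo201), with its standard error as the bar, grouped by amino acid. The 8 members that passed on the right lie between 0.29 and 0.74, the 3 that passed on the left between -0.43 and -0.40, and the 6 urea cycle enzymes between -0.26 and 0.06, with none past the threshold.

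Glutamine breakdown showed the largest rise among the members. Gls2, the liver-type glutaminase that releases ammonia from glutamine near the portal vein, stood at 425, 525, 416 and 409 CPM in the Colo201 libraries 2L, 2R, 4L and 4R and at 335, 312, 231 and 220 CPM in the HCT116 libraries 1L, 1R, 3L and 3R; libraries are given in this order throughout. All 4 libraries of Colo201 hosts lay above all 4 of HCT116 hosts, and within the latter those labelled male were the higher pair. The difference was 0.74 on the log2 scale (SE 0.09, adjusted p = 0.00702, edgeR), and the call held with any 1 library left out. Gls2 was also the 1 member that passed between the lines among libraries labelled female alone (0.89, adjusted p = 0.0267, edgeR; 0.492% of all genes passed there, and 0.26% were higher). That call was lost without Colo201 4L or 4R or any 1 library of HCT116 hosts, with an adjusted p of up to 0.141; where 1 library labelled female was left out, the lone library of that arm was assumed to vary like the other groups. Exons of Gls2 overlap those of Spryd4 on the other strand, and it is not stated whether counting used strand, so their reads may have been joined. Glul, glutamine synthetase, which runs the opposite reaction and is no member, went the other way, from 763 ± 233 CPM in hosts of HCT116 to 356 ± 111 CPM in hosts of Colo201, or -1.04 on the log2 scale (SE 0.19, adjusted p = 0.0245, edgeR).

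Of the 4 histidine enzymes, which act one after another in the order Hal, Uroc1, Amdhd1, Ftcd, the first and the third rose and the other two did not pass. Hal, histidase, which removes ammonia from histidine to give urocanate, stood at 269, 324, 288 and 289 CPM in hosts of Colo201 and at 198, 219, 210 and 166 CPM in hosts of HCT116. Amdhd1, imidazolonepropionase, stood at 297, 335, 310 and 272 CPM against 240, 246, 210 and 197 CPM. The lines did not overlap for either gene. Hal was higher by 0.59 (SE 0.09, adjusted p = 0.0124, edgeR) and kept its call with any 1 library left out. Amdhd1 was higher by 0.48 (SE 0.08, adjusted p = 0.0172, edgeR), and its call was lost without HCT116 1L, 1R or 3L, with an adjusted p of up to 0.0675. Uroc1, urocanase, lay between them in the pathway at 468 ± 56.0 CPM against 456 ± 95.6 CPM, and Ftcd, which passes the last carbon to folate, at 430 ± 47.7 CPM against 463 ± 37.9 CPM. Their log2 fold changes were 0.08 (95% interval -0.15 to 0.32) and -0.08 (-0.28 to 0.13), and neither passed.

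Hal and Amdhd1 are also neighbours in the genome. In GRCm38 coordinates (GENCODE vM21) Hal lies on the plus strand of chromosome 10 from 93488768 to 93519304 and Amdhd1 on the minus strand from 93523338 to 93540033, so the genes face each other tail to tail with 4033 bases between them. Their promoter windows, 250 bases before to 50 after the start in RefSeq (GRCm38.p6), are shown because the genes rose together and do not share a promoter. Hal is at chr10:93488518-93488817, plus strand, and Amdhd1 at chr10:93539984-93540283, minus strand, each read 5′ to 3′ on its own strand.
Hal: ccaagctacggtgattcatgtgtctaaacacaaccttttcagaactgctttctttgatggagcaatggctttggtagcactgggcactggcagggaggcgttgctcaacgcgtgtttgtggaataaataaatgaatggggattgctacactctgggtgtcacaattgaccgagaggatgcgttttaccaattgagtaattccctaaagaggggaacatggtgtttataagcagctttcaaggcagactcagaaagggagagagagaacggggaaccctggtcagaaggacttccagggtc
Amdhd1: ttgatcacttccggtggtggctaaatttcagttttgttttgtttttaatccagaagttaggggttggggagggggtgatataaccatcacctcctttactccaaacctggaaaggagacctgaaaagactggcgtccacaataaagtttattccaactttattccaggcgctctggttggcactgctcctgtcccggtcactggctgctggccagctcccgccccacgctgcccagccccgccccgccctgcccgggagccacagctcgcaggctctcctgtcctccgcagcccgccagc
Neither window holds any of the 8 motifs searched, which are spelled out further on, so no base is in capitals; the Hal window is 47.7% G or C and the Amdhd1 window 57%.

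Both members for glycine rose. Gldc, the decarboxylase of the mitochondrial glycine cleavage system, stood at 126, 121, 121 and 124 CPM in hosts of Colo201 and at 87.0, 90.2, 84.0 and 71.1 CPM in hosts of HCT116. Amt, the aminomethyltransferase that hands the remaining carbon to folate, stood at 42.6, 41.8, 51.0 and 41.3 CPM against 31.3, 31.6, 36.1 and 27.8 CPM. For both genes every library of Colo201 hosts was above every library of HCT116 hosts, and Gldc was nearly level within the Colo201 hosts, at 123 ± 2.41 CPM. Gldc was higher by 0.60 (SE 0.08, adjusted p = 0.0106, edgeR), a call that held with any 1 library left out. Amt was higher by 0.51 (SE 0.11, adjusted p = 0.0365, edgeR), and its call held only without Colo201 4R, with an adjusted p of up to 0.0979 on leaving out any of the other 7 libraries. Gcsh, the carrier protein of the same system and no member, did not pass, at a log2 fold change of -0.02. The promoter windows of Gldc (chr19:30175392-30175691, minus strand) and Amt (chr9:108296655-108296954, plus strand; RefSeq, GRCm38.p6) are shown because their products work in 1 complex and both rose.
Gldc: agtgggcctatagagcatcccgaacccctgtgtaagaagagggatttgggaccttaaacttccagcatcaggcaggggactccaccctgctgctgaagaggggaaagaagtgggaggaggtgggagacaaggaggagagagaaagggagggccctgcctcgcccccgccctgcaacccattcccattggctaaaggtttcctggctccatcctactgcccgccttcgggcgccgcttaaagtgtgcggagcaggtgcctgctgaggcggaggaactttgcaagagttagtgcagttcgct
Amt: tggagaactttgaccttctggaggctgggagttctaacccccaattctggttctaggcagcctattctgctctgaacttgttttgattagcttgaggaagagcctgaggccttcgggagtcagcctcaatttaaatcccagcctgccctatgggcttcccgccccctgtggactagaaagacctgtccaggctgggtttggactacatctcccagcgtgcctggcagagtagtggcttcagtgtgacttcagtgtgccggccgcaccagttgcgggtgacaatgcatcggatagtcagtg
As for histidine, neither window holds a searched motif.

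The methionine cycle makes S-adenosylmethionine, the methyl donor, and disposes of the homocysteine left over either by remethylation or by transsulfuration to cysteine. Its 6 members split: Cbs rose, Ahcy fell and 4 did not pass. Cbs, cystathionine beta-synthase, the entry to transsulfuration, stood at 495, 457, 471 and 488 CPM in hosts of Colo201 and at 299, 337, 334 and 283 CPM in hosts of HCT116. The groups did not overlap, and the gap between the lowest Colo201 library and the highest HCT116 library exceeded the whole range within either line. Cbs was higher by 0.64 (SE 0.08, adjusted p = 0.00897, edgeR) and kept its call with any 1 library left out. Cth, the next enzyme of transsulfuration, was level at 294 ± 53.6 CPM against 286 ± 15.3 CPM, with a log2 fold change of 0.06 (95% interval -0.20 to 0.31).

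Ahcy, the hydrolase that splits S-adenosylhomocysteine into homocysteine and adenosine, stood at 589, 657, 482 and 471 CPM in hosts of Colo201 and at 917, 783, 706 and 608 CPM in hosts of HCT116. The groups overlapped, since Colo201 2R was above HCT116 3R, but within each sex label both Colo201 libraries were below both HCT116 libraries. Ahcy was lower by 0.43 on the log2 scale, at -0.43 (SE 0.08, adjusted p = 0.0266, edgeR), and kept its call only without HCT116 1R or 3R, with an adjusted p of up to 0.0888 on leaving out any other library. Mat1a, which makes S-adenosylmethionine, was at 3173 ± 294 CPM against 3272 ± 754 CPM, Gnmt, which uses it to methylate glycine, at 1226 ± 206 CPM against 1151 ± 139 CPM, and Bhmt, which remethylates homocysteine with betaine, at 757 ± 152 CPM against 811 ± 177 CPM. None of these genes passed, and their log2 fold changes were 0.01, 0.12 and -0.08.

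**Figure D2:**
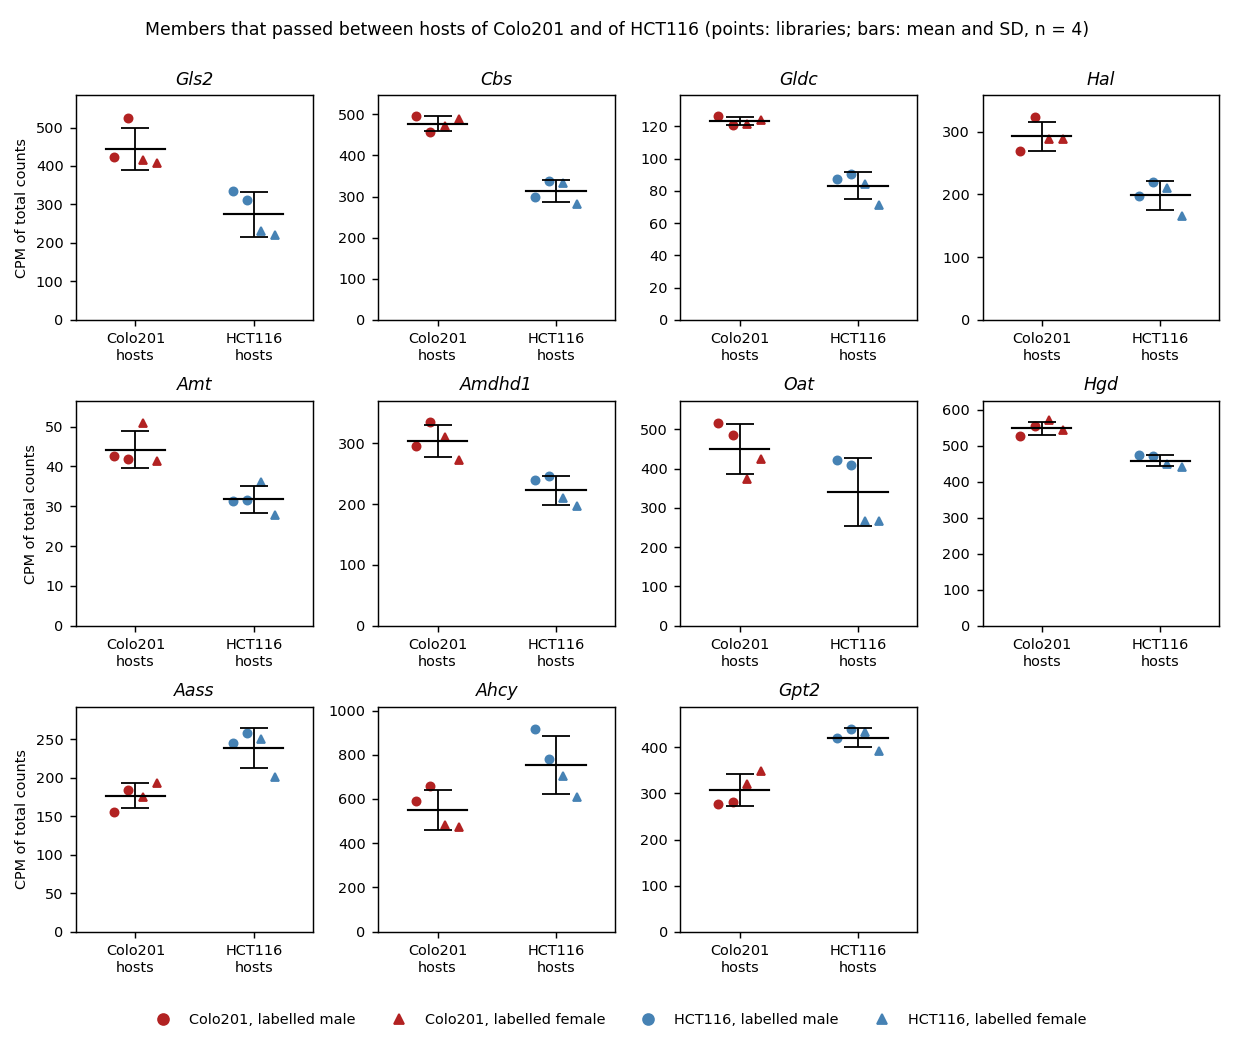
CPM of total counts (vertical axes, each from 0) in each of the 8 libraries for the 11 members that passed between the lines, with circles for libraries labelled male, triangles for those labelled female, and black bars for the mean and SD of the 4 libraries of a line. The lines are fully apart in 9 panels and overlap for Oat and Ahcy, where the sex labels also lie apart within a line.

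Of the 4 members that take amino groups from alanine, serine and aspartate, 1 fell and 3 did not pass. Gpt2, the mitochondrial alanine aminotransferase, stood at 278, 282, 321 and 349 CPM in hosts of Colo201 and at 421, 439, 434 and 392 CPM in hosts of HCT116. No library of one line reached the range of the other. Gpt2 was lower, at -0.43 on the log2 scale (SE 0.09, adjusted p = 0.0313, edgeR), and the call held only without Colo201 4R or HCT116 3R, with an adjusted p of up to 0.0959 on leaving out any other library. Gpt, the cytosolic alanine aminotransferase, stood at 311, 430, 329 and 315 CPM against 361, 329, 251 and 220 CPM, which overlapped. Its log2 fold change was 0.30 (95% interval 0.05 to 0.55, adjusted p = 0.157, edgeR) and did not pass; the difference between the 2 enzymes in their response was not tested.

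Sds, serine dehydratase, which turns serine into pyruvate and ammonia, had the largest fitted difference of any member without passing. It stood at 118, 148, 74.1 and 169 CPM in hosts of Colo201 and at 261, 306, 173 and 166 CPM in hosts of HCT116, and varied 4.12-fold between the lowest and the highest library. The highest library of Colo201 hosts, 4R, lay above the lowest of HCT116 hosts, 3R. The log2 fold change was -0.76 (SE 0.24, 95% interval -1.30 to -0.21, adjusted p = 0.111, edgeR), and without Colo201 4R the gene passed (adjusted p = 0.00823, edgeR). Exons of Sds overlap Plbd2 on the other strand. Got1, the cytosolic aspartate aminotransferase, varied 3.37-fold, at 271, 353, 264 and 210 CPM against 289, 265, 167 and 105 CPM, with a log2 fold change of 0.52 that did not pass (SE 0.18, adjusted p = 0.14, edgeR).

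Lysine, ornithine and proline were represented by 4 genes. Aass, the enzyme that opens lysine breakdown through saccharopine, stood at 155, 184, 175 and 193 CPM in hosts of Colo201 and at 245, 258, 251 and 201 CPM in hosts of HCT116. The lines did not overlap, though Colo201 4R and HCT116 3R were close. Aass was lower, at -0.40 (SE 0.09, adjusted p = 0.0472, edgeR), and passed only without HCT116 3R when 1 library was left out, with an adjusted p of up to 0.135 otherwise.

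Oat, ornithine aminotransferase, which draws ornithine away from the urea cycle toward glutamate and proline, stood at 516, 486, 374 and 424 CPM in hosts of Colo201 and at 422, 408, 267 and 266 CPM in hosts of HCT116. The lines overlapped, because both libraries labelled female were the lower pair within each line, while within each label both Colo201 libraries were above both HCT116 libraries. Oat was higher by 0.46 (SE 0.09, adjusted p = 0.0335, edgeR), and kept the call only without Colo201 2R, with an adjusted p of up to 0.107 on leaving out any other library. The windows of Oat (chr7:132576349-132576648, minus strand) and Aass (chr6:23132937-23133236, minus strand; RefSeq, GRCm38.p6) are shown because both hold TGACG, the core of the cAMP response element, in capitals here, and the genes moved in opposite directions.
Oat: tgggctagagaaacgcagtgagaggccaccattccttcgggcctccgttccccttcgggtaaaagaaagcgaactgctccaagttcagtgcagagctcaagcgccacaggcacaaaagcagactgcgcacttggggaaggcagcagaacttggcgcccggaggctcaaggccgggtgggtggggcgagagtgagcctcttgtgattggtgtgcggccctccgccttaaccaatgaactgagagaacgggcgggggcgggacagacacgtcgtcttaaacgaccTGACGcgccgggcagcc
Aass: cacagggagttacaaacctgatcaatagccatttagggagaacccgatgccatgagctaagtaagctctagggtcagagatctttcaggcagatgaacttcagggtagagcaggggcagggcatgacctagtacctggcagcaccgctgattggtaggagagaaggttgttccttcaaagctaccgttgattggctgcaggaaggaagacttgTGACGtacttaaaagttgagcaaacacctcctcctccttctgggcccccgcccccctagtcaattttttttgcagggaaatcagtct
This core begins 37 bases before the start in Aass and 33 bases after it in Oat.

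Prodh, proline dehydrogenase, stood at 85.8, 82.7, 82.4 and 86.1 CPM in hosts of Colo201 and at 128, 131, 123 and 79.8 CPM in hosts of HCT116. All libraries of Colo201 hosts were nearly level, 3 of HCT116 hosts were clearly higher, and HCT116 3R was below every Colo201 library. Its log2 difference was -0.41 (SE 0.13, adjusted p = 0.117, edgeR), and without HCT116 3R it was -0.54 and passed (SE 0.08, adjusted p = 0.0267, edgeR). Aldh4a1, which carries out the next step of proline breakdown, was at 606 ± 98.7 CPM against 567 ± 125 CPM and did not pass; its exons overlap Gm21969 on the same strand.

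The 5 tyrosine members act in series, and 1 of them rose. Hgd, homogentisate dioxygenase, the third, stood at 528, 554, 571 and 543 CPM in hosts of Colo201 and at 474, 471, 450 and 441 CPM in hosts of HCT116. The lines did not overlap and the spread within each was small, at 549 ± 18.1 CPM and 459 ± 16.0 CPM. Hgd was higher by 0.29 (SE 0.07, adjusted p = 0.0499, edgeR), and leaving out any 1 of the 8 libraries ended the call, with adjusted p of 0.0788 to 0.155. Tat, tyrosine aminotransferase, the first step and a classical glucocorticoid target, was at 1200 ± 302 CPM against 1326 ± 537 CPM. Hpd, Gstz1 and Fah, which act at the second step and after Hgd, were at 2110 ± 411, 278 ± 15.9 and 611 ± 54.6 CPM in hosts of Colo201 and at 2212 ± 547, 303 ± 33.9 and 567 ± 49.1 CPM in hosts of HCT116. These 4 genes had log2 fold changes of -0.09 to 0.14 and did not pass.

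None of the 4 members of tryptophan breakdown passed between the lines. Tdo2, which opens the kynurenine pathway, was at 1114 ± 230 CPM against 1236 ± 323 CPM, Kynu at 125 ± 28.6 CPM against 123 ± 26.1 CPM and Haao at 477 ± 22.7 CPM against 477 ± 38.7 CPM. Kmo, the monooxygenase of the same pathway, was nearest to the threshold, at 155 ± 14.6 CPM against 132 ± 20.7 CPM with a log2 fold change of 0.27 (95% interval 0.08 to 0.46, adjusted p = 0.103, edgeR). Bckdha and Bckdhb, the subunits of the decarboxylase that commits branched-chain amino acids to breakdown, did not pass either. Bckdhb stood at 128, 126, 126 and 125 CPM in hosts of Colo201 and at 137, 139, 140 and 138 CPM in hosts of HCT116. Its lines were fully apart with very little spread, yet the log2 fold change was -0.11 (95% interval -0.27 to 0.06, adjusted p = 0.438, edgeR). The test draws its estimate of spread partly from all genes. Bckdha was at 308 ± 19.5 CPM against 305 ± 15.5 CPM.

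None of the 6 urea cycle members passed. Their summed level was 6199 ± 513 CPM in hosts of Colo201 and 6767 ± 991 CPM in hosts of HCT116, a ratio of 0.916 with overlapping libraries. Cps1, carbamoyl phosphate synthetase, which fixes ammonia at the start of the cycle, stood at 2055, 2473, 1759 and 2210 CPM in hosts of Colo201 and at 2757, 2819, 2744 and 1778 CPM in hosts of HCT116. Of the HCT116 hosts 3 libraries lay above all those of Colo201 hosts, while 3R was near the lowest. The log2 fold change was -0.21 (95% interval -0.50 to 0.07, adjusted p = 0.366, edgeR), and without HCT116 3R it was -0.32 and still did not pass (adjusted p = 0.117, edgeR).

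Asl, argininosuccinate lyase, stood at 296, 380, 310 and 301 CPM against 476, 478, 336 and 312 CPM. The 2 libraries of HCT116 hosts labelled male were the highest, and the other 2 lay within the range of the Colo201 hosts. Its log2 fold change was -0.26 (95% interval -0.50 to -0.03, adjusted p = 0.178, edgeR). The other urea cycle genes were closer together. Otc, ornithine transcarbamylase, was at 417 ± 44.8 CPM against 444 ± 12.8 CPM, Ass1, argininosuccinate synthetase, at 1981 ± 175 CPM against 1950 ± 345 CPM, and Arg1, arginase, at 1277 ± 159 CPM against 1368 ± 143 CPM. Nags, which makes the activator of Cps1, was at 78.3 ± 5.60 CPM against 79.9 ± 2.78 CPM, with a 95% interval of -0.18 to 0.17 on the log2 scale. The intervals of Otc, Ass1 and Arg1 ran from -0.24 to 0.11, from -0.11 to 0.24 and from -0.30 to 0.17.

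**Figure D3:**
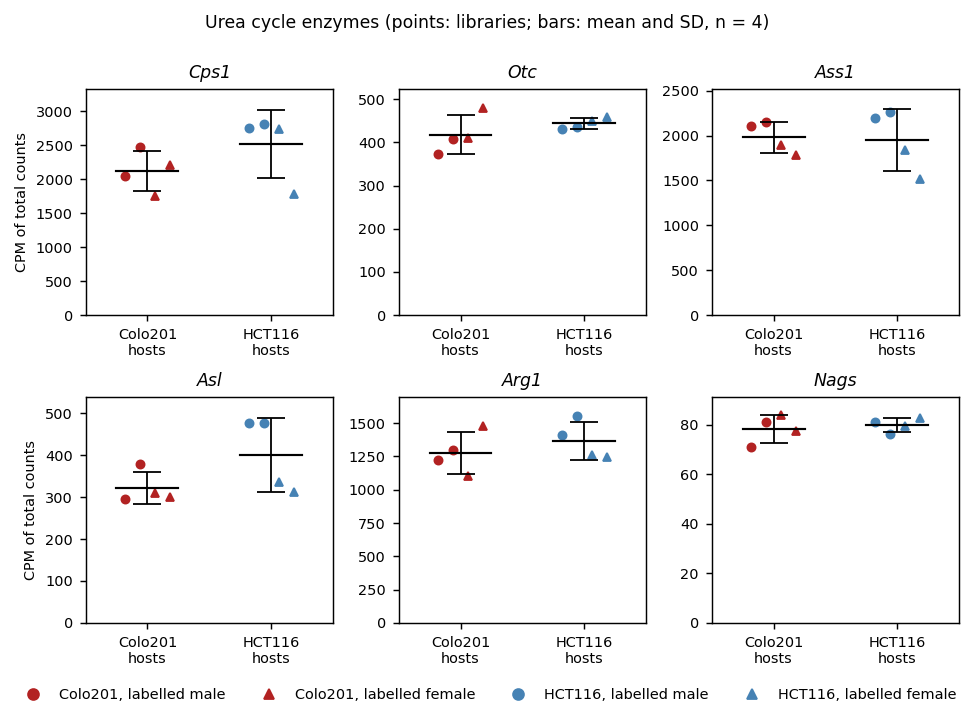
CPM of total counts (vertical axes, each from 0) of the 6 urea cycle members in each library, with circles for libraries labelled male, triangles for those labelled female, and bars for the mean and SD of 4 libraries. Every panel shows overlapping lines. HCT116 3R is the lowest library of HCT116 hosts for Cps1, Ass1, Asl and Arg1, at 1778, 1514, 312 and 1248 CPM, and the highest of them for Otc and Nags.

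Levels of different genes can be set side by side only per length, in the authors' FPKM. Over all 8 libraries the highest member was Hpd, at a mean of 928 FPKM, followed by Gnmt at 899.9 FPKM, Mat1a at 849 FPKM, Ass1 at 744 FPKM and Arg1 at 542 FPKM. Tat followed at 479.9 FPKM and Cps1 at 382 FPKM. The lowest were Gldc at 15.4 FPKM, Amt at 14.2 FPKM and Prodh at 11.7 FPKM. The ranges over the 8 libraries overlapped in 36 of 37 neighbouring pairs. Neighbours were measured in the same libraries and were not compared library by library, so overlap does not show that they were level. These are abundant liver transcripts, with 5 members among the 100 highest genes by FPKM and 31 among the 1000 highest. The glycine enzymes that rose are thus near the bottom of the order, and the 7 genes named at the top did not pass between the lines.

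**Figure D4:**
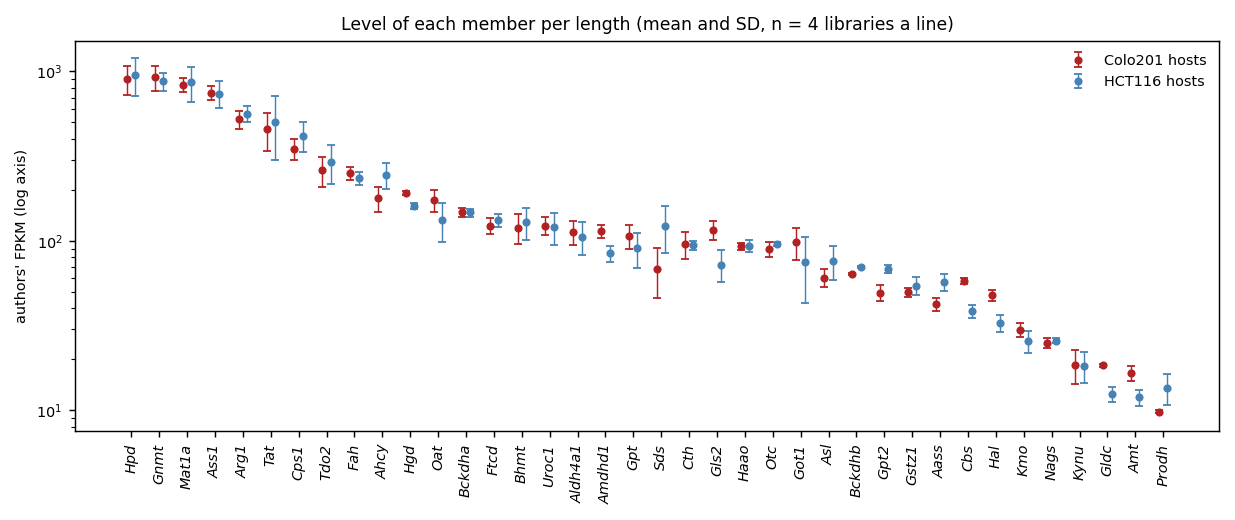
Mean and SD of the authors' FPKM (vertical log axis) for each member in the 4 libraries of Colo201 hosts (red) and of HCT116 hosts (blue), ordered by the mean over all 8 libraries. Levels run from 928 FPKM for Hpd to 11.7 FPKM for Prodh, and the lines lie close together over most of the order.

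The sex label went with several members too. Between libraries labelled male and female, 4 members were higher in those labelled male and 2 were lower (edgeR with line as a covariate, adjusted p under 0.05), which is 15.79% of the members against 4.02% of all genes tested, with 1.96% higher and 2.06% lower. Hpd, hydroxyphenylpyruvate dioxygenase of tyrosine breakdown, stood at 2437, 2492, 2780 and 2576 CPM in the libraries labelled male (Colo201 2L and 2R, then HCT116 1L and 1R) and at 1768, 1741, 1815 and 1677 CPM in those labelled female. The labels were fully apart. Under the label male both HCT116 libraries lay above both Colo201 libraries, and under the label female the lines were mixed. The difference was 0.55 (SE 0.07, adjusted p = 0.00367, edgeR), and this call held with any 1 library left out. Aldh4a1 was at 673 ± 64.2 CPM in libraries labelled male and 501 ± 50.8 CPM in those labelled female, higher by 0.43 (SE 0.08, adjusted p = 0.0302, edgeR).

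Tdo2 and Kynu of the kynurenine pathway moved the other way. Tdo2 stood at 992, 859.9, 889 and 1042 CPM in libraries labelled male and at 1239, 1366, 1572 and 1440 CPM in those labelled female. Kynu, kynureninase, stood at 112, 91.0, 93.7 and 109 CPM against 151, 147, 153 and 135 CPM. Both genes separated the labels completely. Tdo2 was lower in libraries labelled male, at -0.57 (SE 0.10, adjusted p = 0.0166, edgeR), and Kynu at -0.52 (SE 0.11, adjusted p = 0.0318, edgeR).

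Oat and Ahcy passed in both comparisons. Both were higher in libraries labelled male, Oat by 0.48 (SE 0.09, adjusted p = 0.027, edgeR) and Ahcy by 0.38 (SE 0.08, adjusted p = 0.0358, edgeR), while between the lines Oat rose and Ahcy fell in hosts of Colo201. With title numbers summed 0 of the 38 members passed between the labels by edgeR, where 126 of 19704 genes did (0.639%), and 17 members had an unadjusted p under 0.05, against 15.1% of all genes. With 1 library left out, the calls other than that of Hpd were less stable. That of Tdo2 was lost without Colo201 2R or HCT116 1L, 1R or 3L (adjusted p of up to 0.0627), and Kynu and Ahcy kept theirs in 1 of 8 cases, without Colo201 2L and without HCT116 1R. Oat kept its call without Colo201 2R or 4R and Aldh4a1 without Colo201 2L or 4L, and both lost it without any of the other 6 libraries. Without HCT116 3R, Hpd and Tdo2 were the 2 members that passed, beside 2.38% of all genes.

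A further 5 members lay fully apart by label without passing: Tat, Got1, Uroc1, Mat1a and Ass1, each higher in libraries labelled male. In all 9 members were apart, 7 higher and 2 lower, where 9.41% of all genes were, 4.69% higher and 4.71% lower. Tat stood at 1406, 1426, 1504 and 1988 CPM in libraries labelled male and at 775, 1194, 759 and 1052 CPM in those labelled female, a log2 difference of 0.73 (SE 0.18, adjusted p = 0.0647, edgeR). Summed over all 38 members, the level was 24360 to 28080 CPM under the label male and 20200 to 23680 CPM under the label female, with no overlap. The most abundant members weigh most in this sum. Mat1a alone was at 3639 ± 288 CPM against 2806 ± 341 CPM, while Tdo2 went the other way, at 946 ± 85.8 CPM against 1404 ± 139 CPM. Of the 38 members 29 had a log2 difference above 0, against 49.87% of all genes.

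**Figure D5:**
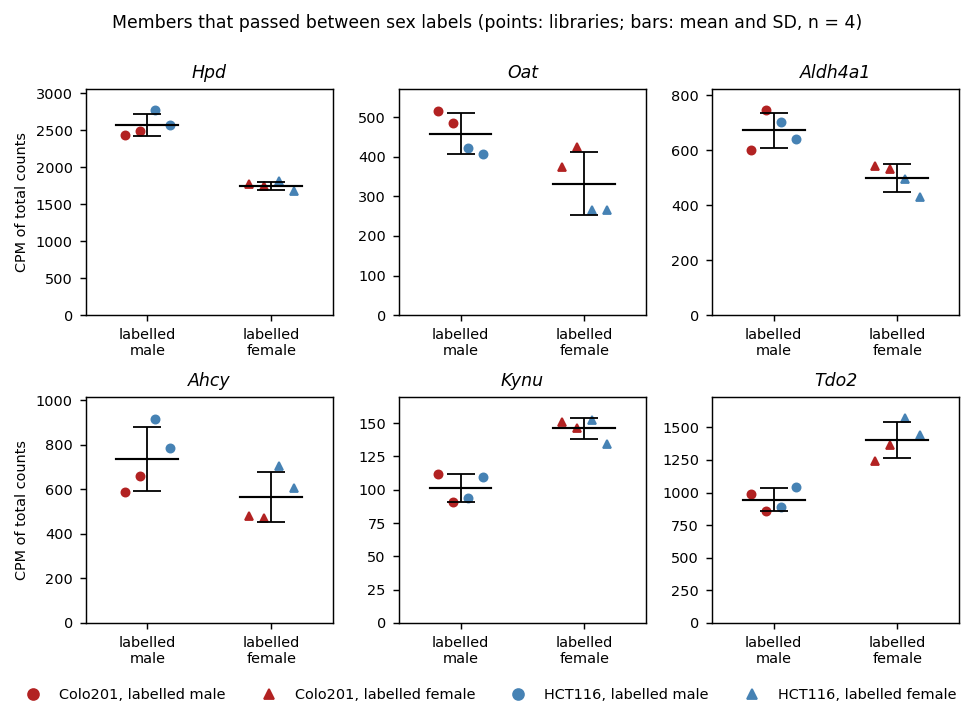
CPM of total counts (vertical axes, each from 0) of the 6 members that passed between sex labels, with libraries grouped by label, red for hosts of Colo201 and blue for hosts of HCT116, and bars for the mean and SD of 4 libraries. Hpd, Aldh4a1, Kynu and Tdo2 separate the labels, while Oat and Ahcy overlap because the lines differ within each label.

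The interaction of line and sex label was tested as well, the difference among libraries labelled female minus that among libraries labelled male. No member passed in edgeR (0 of 38, against 0.0283% of all genes, with 0.017% above and 0.0113% below 0), and 2 had an unadjusted p under 0.05, Cth and Asl, against 4.1% of all genes. DESeq2 also gave 0. The fitted values nevertheless leaned one way: 33 of 38 members had an interaction above 0, with a median of 0.15, where 50.46% of all genes were above 0 with a median of 0.00. Without HCT116 3R, the low library labelled female, the count was 28 and the median 0.09. The count was also 28 without Colo201 4L, and it was 31 to 33 without any other library. Within a label the test had few libraries, 2 against 2. Among libraries labelled male 0 members passed by edgeR (0.232% of all genes did), 15 had an unadjusted p under 0.05 (13.1% of all genes), and DESeq2 called 8 (3.22% of all genes). Among those labelled female Gls2 passed, and 12 members had an unadjusted p under 0.05 (14.1% of all genes).

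RefSeq promoter windows were found for 29 of the 38 members, and 8 short motifs were searched in them, on both strands unless stated. The core of the cAMP response element, TGACG, was in 5 of 29 (17.2%: Aass, Ftcd, Gstz1, Nags and Oat), against 20.8% of all 32851 windows. The full element TGACGTCA, which contains that core, was in 0, against 1.79% of all windows. The glucocorticoid receptor core TGTTCT was in 3 (10.3%: Bckdhb, Haao and Kmo), against 19% of all. The composite site of ATF4 and C/EBP, TGATGNAA, was in Got1 alone (3.45% against 3.97%). The letters TATAAA of the TATA box, on the gene's strand, were in Ftcd and Tdo2 (6.9% against 8.32%). They begin at -29 from the start in Ftcd and at -229 in Tdo2. The C/EBP sites TTGCGCAA and TTGCNNAAT and the HNF4 site CAAAGTCCA were in 0, against 0.183%, 2.4% and 0.475% of all windows. A match or its absence describes these 300 bases only.

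Other genes of the same pathways were counted from lists. Of 56 other catabolic enzymes tested, 2 rose and 4 fell, again beside 4.78% of all genes. Agxt, which turns glyoxylate into glycine with alanine as the donor, rose from 359 ± 58.6 to 670 ± 66.8 CPM (0.94, SE 0.10, adjusted p = 0.00456, edgeR). Dmgdh, which demethylates the dimethylglycine left by Bhmt, fell from 406 ± 52.7 to 276 ± 38.3 CPM (-0.53, SE 0.08, adjusted p = 0.0127, edgeR). Csad, an enzyme of taurine synthesis, fell from 205 ± 162 to 12.6 ± 2.61 CPM (-3.56, SE 0.44, adjusted p = 0.00702, edgeR). In hosts of HCT116 it stood at 72.5 and 60.7 CPM in libraries labelled male and at 369 and 319 CPM in those labelled female. Glul fell by 1.04. Of 22 other branched-chain enzymes 1 passed, Aldh6a1 of valine breakdown, which fell by 0.38. The summed level of this list was 2644 to 2946 CPM in hosts of Colo201 and 3209 to 3487 CPM in hosts of HCT116, which did not overlap. Neither of the 2 serine synthesis genes tested passed.

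Of 26 amino acid and urea cycle carriers 1 rose and 2 fell. Slc1a4, a carrier of neutral amino acids, rose by 1.49 from a low level of 3.56 ± 1.26 to 9.37 ± 0.912 CPM, while Slc1a2, a glutamate carrier of pericentral hepatocytes, fell by 1.30, and Slc25a13, the mitochondrial aspartate and glutamate exchanger that feeds the urea cycle, fell by 0.31. Of 19 regulators of amino acid catabolism only Nr1h4, the bile acid receptor FXR, passed and fell by 0.46. Of 10 genes responsive to glucocorticoid or glucagon, Fkbp5 (-0.87), Zbtb16 (-1.92) and Pck1 (-0.50) fell, while Tat, itself such a target, stood at -0.07.

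Zonation and cell markers are given beside these results. Of 10 periportal markers that are no members, Cdh1, Apoa4 and Cyp17a1 rose and Pck1 fell, and their summed level was 9855 to 10900 CPM in hosts of Colo201 and 8909 to 11980 CPM in hosts of HCT116. Of 12 pericentral markers Lect2 rose and Cyp27a1, Cyp2e1, Glul and Slc1a2 fell, with sums of 7143 to 9118 CPM against 10930 to 13030 CPM, which did not overlap. Defining hepatocyte genes were abundant, as the tissue label says, at 161400 to 195900 CPM against 133800 to 176900 CPM, and 3 of 10 rose. Among markers of other cells 0 of 10 Kupffer cell, 0 of 8 endothelial, 0 of 7 cholangiocyte, 0 of 5 neutrophil, 0 of 5 erythroid and 0 of 1 lymphocyte genes tested passed by edgeR; 1 of 8 stellate cell genes, Reln, rose. Colo201 4R stood apart in these lists. Its cholangiocyte sum was 68.0 CPM, against 26.8 to 40.2 CPM in the other 7 libraries, and it had the lowest Kupffer cell and endothelial sums; the calls that turned on leaving it out were those of Sds, which then passed, and Hgd, Aass, Oat and Ahcy, which did not. The Kupffer cell sum was 195 to 564 CPM against 314 to 499 CPM, and the endothelial sum 161 to 297 CPM against 200 to 307 CPM. Of the pancreas markers Cela1 rose, with a list sum of 25.3 to 51.2 CPM against 9.05 to 27.6 CPM, while Cpa1, Amy2a5 and Ins2 were at 0 in all libraries. The part of zonation or of other cells in the members' differences was not tested.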

How the data were processed

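Polyadenylated liver RNA was sequenced from stranded TruSeq mRNA libraries of TRIzol extracts, per the labels' protocols. HISAT2, StringTie and GRCm38 (mm10) are named in the submitters' processing notes; versions, annotation and strand setting: not given in the sources used here. The authors deposited a table of estimated counts, whole numbers per gene that edgeR took as they stand. How they came from reads is not given: 44.7% of values of 1 to 16 were multiples of 4. The authors' FPKM table is proportional to it within a gene and served only to order levels and in alternatives. No batch is given in the labels. Of 55401 identifiers, 55141 matched a symbol in GENCODE vM21, and all 38 members matched. The 260 without a symbol stayed in the fit.

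CPM are counts over library totals, as mean ± SD; tests used TMM scaling (factors 0.946 to 1.035) and filterByExpr over the 4 combinations of line and sex label. Tests used edgeR 4.0.16 in R 4.3.3 (glmQLFit, glmQLFTest), two-sided, with Benjamini-Hochberg adjustment over all 17669 genes and a threshold of 0.05. Fits had sex label and line as terms (5 residual degrees of freedom), or 4 means for the interaction and within-label contrasts (4). The fits were tested on simulated data. Alternatives used limma 3.58.1, DESeq2 1.42.0, other scalings, filters and covariates, log2 FPKM with a pseudocount of 1 or 0.1, and each library left out. Members, lists and tests were chosen with earlier results of these data known. All 38 members are named whatever their result; of each pathway list, up to 4 passing genes with the smallest p. Exons of 6 members (Gstz1, Sds, Gls2, Bhmt, Bckdha and Nags) overlap a gene on the other strand and Bhmt has a pseudogene copy, so their reads may be shared. Precision is limited by the 4 libraries per line rather than by depth, with 1706 to 251000 counts for any member in any library.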

Additional observations from a re-analysis of the deposited data

Results flagged for a closer look

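For 8 of the 76 sets of 4 libraries (38 members in each line), 1 library lay far from the other 3, with a gap that exceeded Dixon's 95% critical value for 4 samples. Chance flags about 1 set in 20 where the 4 libraries are exchangeable. Here each set holds 2 title numbers under 2 sex labels, so that rate is not known to apply.

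In Colo201 2R, labelled male, 4 members were high: Gpt at 429.7 CPM (the other 3 libraries of Colo201 hosts lay at 310.5 to 329.4 CPM), Uroc1 at 551.4 CPM (430.7 to 445.6 CPM), Gls2 at 525 CPM (408.8 to 424.5 CPM) and Asl at 380 CPM (296.1 to 310 CPM). In Colo201 4L, labelled female, Amt was high at 51.01 CPM (41.32 to 42.61 CPM). In HCT116 3R, labelled female, 3 members were low: Ftcd at 406.3 CPM (475.3 to 485.9 CPM in the other HCT116 hosts), Prodh at 79.77 CPM (123.4 to 130.6 CPM) and Cps1 at 1778 CPM (2744 to 2819 CPM).

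Across the 38 members HCT116 3R was the lowest library for 21, and its summed level over them was 20200 CPM, against 22640 to 28080 CPM in the other 7 libraries. HCT116 1R was the highest for 12 members and Colo201 2R for 10. Of the genes above, Gls2 kept its call between the lines without Colo201 2R, Amt lost its call without Colo201 4L, and Prodh passed without HCT116 3R, at -0.54 (adjusted p = 0.0267, edgeR).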

How the results depend on the processing

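No paired analysis was possible because the lines share no replicate numbers. Over the 38 members and 24 alternatives, 0 of 912 log2 fold changes between the lines reversed a call. Of these values 785 kept direction and side of the threshold, 89 were no longer past it and 10 newly passed. Kmo and Gpt newly passed only with title number as a random term, a fit with a limit given below. The other 28 changed sign, with neither the main fit nor the alternative past the threshold. Across the 24 alternatives Cbs kept its call in 23, Hal, Gls2 and Gldc in 22, Amdhd1 in 18, Gpt2 and Ahcy in 15, Oat in 14, Amt in 10, Aass in 8 and Hgd in 6. No summed level of an amino acid group moved beyond its spread with FPKM or TMM-scaled CPM. The cause of the changes below was not tested.

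Between the lines, 11 members and 845 genes passed. DESeq2 gave 14 members and 1918 genes. An adjusted p under 0.01 left 2 members and 92 genes, leaving out the sex label 3 members and 155 genes, and summing title numbers 0 and 0, with 3518 of 19704 genes at an unadjusted p under 0.05 and 1 residual degree of freedom. Title number as a random term in limma voom, with an estimated correlation of -0.383, gave 16 members and 3795 genes. That correlation rests on 1 residual degree of freedom between title numbers. Being negative, it narrows the standard errors, so the larger counts are no stronger evidence, here or between sex labels. The other scalings, filters and units gave 8 to 11 members. Leaving out 1 library gave 4 (without HCT116 1L or 3L) to 9 members and 182 (without HCT116 3L) to 549 genes.

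Between sex labels, 6 members and 710 genes passed. DESeq2 gave 14 members and 1585 genes, an adjusted p under 0.01 gave 1 and 225, title numbers summed 0 and 126, and title number as a random term 16 and 2794. With 1 library left out the range was 1 (without HCT116 1L or 3L) to 7 members and 314 to 639 genes.

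For the interaction 5 genes passed. DESeq2 gave 52, an adjusted p under 0.01 gave 3, and leaving out 1 library 0 to 13, always with 0 members. Among libraries labelled male 0 members and 41 genes passed. DESeq2 gave 8 and 569, an adjusted p under 0.01 gave 0 genes, and leaving out 1 library 0 to 49 genes. Among those labelled female 1 member and 87 genes passed. DESeq2 gave 8 and 747, limma voom 2 and 142, an adjusted p under 0.01 gave 0 and 10, and leaving out 1 library 0 to 1 member and 18 to 79 genes.

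Each member had at least 1706 counts in every library, so the number of libraries and the open relation of L and R limit these comparisons more than depth does.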
